A study of Mus musculus with 16 samples.

Results

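The replication-dependent histone genes encode the linker histone H1 and the core histones H2A, H2B, H3 and H4 that package newly made DNA. Members were taken as genes whose current symbol, found through the transcript accession printed for each array probe, begins with H2ac, H2bc, H3c or H4c or is H1f1 to H1f5. The older names of these genes begin with Hist1 or Hist2 on this array. The rule gave 43 genes, out of 20660 genes with a symbol, read by 47 of the 55681 probes, and used no measured value. By class there were 5 H1 probes, 14 H2A, 10 H2B, 7 H3 and 11 H4. The mouse genes stand in clusters, and 38 member probes belong to genes on chromosome 13 and 9 to genes on chromosome 3.

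In dividing cells these genes are switched on together as S phase begins, by NPAT acting at histone locus bodies. Most of their mRNAs end in a conserved stem-loop in place of a poly(A) tail. The stem-loop is bound by SLBP, which takes part in 3′ end cutting, translation and decay of the mRNA. Adult liver is a tissue with few dividing cells, and some members, H1f2 and H2bc4 among them, are known also to give polyadenylated mRNAs in cells that do not divide.

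Livers came from female B6C3F1 mice that were bought at 5 to 6 weeks of age, acclimatized for at least 7 days, and dosed by oral gavage for 21 days. The furan groups received 8 mg/kg body weight of furan in corn oil, and the controls corn oil alone. All livers were taken 4 h after the last dose, fixed in formalin for 3 weeks or 18 h and embedded in paraffin, giving 4 groups of 4 arrays: furan at 3 weeks, corn oil at 3 weeks, furan at 18 h and corn oil at 18 h. RNA came from 2 sections of 10 µm at 3 weeks and from 1 section at 18 h, so time in formalin and amount of tissue cannot be told apart, and its RIN, an integrity score, ran from 1.3 to 2.4. Each array held cDNA of 1 liver sample in Cy5 against a pool of all samples in Cy3, with no dye swap. The primer used to make that cDNA is not given in the sources used here, which matters for mRNAs without a poly(A) tail. Arrays 2.1 and 2.2 of the 3-week corn oil group share the sample number 2 and were counted as 1 sample, which leaves 3 corn oil samples at 3 weeks and 15 samples in all. The labels speak of biological replicates, and do not say whether the livers fixed for 3 weeks and 18 h under 1 number came from the same mouse.

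Values are log2 ratios of a liver sample to the pool, after loess within each array, and differences are log2 differences between groups from limma with the slide as a term, so they can depart slightly from the difference of 2 means. A probe entered the tests if at least 3 arrays of some group had it well above background, and was called at a Benjamini-Hochberg adjusted p under 0.05 over all 29690 tested probes. Of the 47 member probes, 42 probes of 38 genes were tested. H1f3, H2ac1, H2ac6, H2ac8 and H2bc23 were too dim, and 31 member probes were well above background on all 16 arrays. All 7 hepatocyte marker genes were above background on every array. Between 35.9% and 41.4% of all probes were above background on the 3-week furan arrays, 32.3% to 36.7% on the 3-week corn oil arrays, 51.9% to 55.2% on the 18 h furan arrays and 44.3% to 50.1% on the 18 h corn oil arrays. Of the member probes, 36 to 41, 33 to 36, 39 to 40 and 33 to 38 were above background on the arrays of the same groups.

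The start regions of 38 of the 43 genes are in the RefSeq promoter table (build GRCm38.p6), as 39 windows of 300 bases. They were searched on both strands for the letters CCAAT, for the TATA box as TATAAA, for the octamer as ATTTGCAT, for the element known as the H1 box as AAACACA and for the core of an H4 promoter element as GGTCCG. None of the motifs contains another. GGTCCG was found in all 7 H4 windows and in 1 of the other member windows, that of H3c11, against 8.25% of all 32851 promoter windows. AAACACA was found in 4 of 5 H1, 2 of 9 H2B and 2 of 13 H2A windows, against 7.18% of all windows. The octamer was found in 6 of 9 H2B and 6 of 13 H2A windows, against 1.74%. CCAAT stood in 100% of the H1, H2A, H2B and H3 windows but in 2 of 7 H4 windows, against 37.4% of all windows, and TATAAA in 25 of the 39 member windows, against 13.6%. The H2A and H2B genes H2ac22 and H2bc22, H2ac8 and H2bc8, and H2ac1 and H2bc1 run in opposite directions and share 261, 279 and 220 bases of their windows. Windows of 4 genes whose values recur below are shown to make the class differences visible, with every match to one of the 5 motifs in capitals. H1f2 lies at chr13:23738557-23738856 on the + strand, H2bc14 at chr13:21721794-21722093 on the + strand, H4c8 at chr13:23530794-23531093 on the + strand and H4c12 at chr13:21750504-21750803 on the - strand.
H1f2: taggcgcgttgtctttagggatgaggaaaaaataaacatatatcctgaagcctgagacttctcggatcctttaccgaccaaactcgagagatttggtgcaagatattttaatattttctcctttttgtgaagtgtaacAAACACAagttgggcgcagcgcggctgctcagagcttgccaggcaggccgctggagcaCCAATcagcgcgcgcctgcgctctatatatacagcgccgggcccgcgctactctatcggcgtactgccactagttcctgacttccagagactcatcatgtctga
H2bc14: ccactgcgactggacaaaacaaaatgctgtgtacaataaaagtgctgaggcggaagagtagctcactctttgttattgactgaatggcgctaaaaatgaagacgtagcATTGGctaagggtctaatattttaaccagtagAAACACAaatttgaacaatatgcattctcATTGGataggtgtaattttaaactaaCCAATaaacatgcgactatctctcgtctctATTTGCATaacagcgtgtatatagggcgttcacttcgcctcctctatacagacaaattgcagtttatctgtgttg
H4c8: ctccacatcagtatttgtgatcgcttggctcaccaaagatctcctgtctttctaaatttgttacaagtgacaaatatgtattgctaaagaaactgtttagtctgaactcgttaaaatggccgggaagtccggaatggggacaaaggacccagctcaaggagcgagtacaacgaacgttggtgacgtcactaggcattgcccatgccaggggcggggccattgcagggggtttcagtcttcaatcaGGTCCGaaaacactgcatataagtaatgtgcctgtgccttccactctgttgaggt
H4c12: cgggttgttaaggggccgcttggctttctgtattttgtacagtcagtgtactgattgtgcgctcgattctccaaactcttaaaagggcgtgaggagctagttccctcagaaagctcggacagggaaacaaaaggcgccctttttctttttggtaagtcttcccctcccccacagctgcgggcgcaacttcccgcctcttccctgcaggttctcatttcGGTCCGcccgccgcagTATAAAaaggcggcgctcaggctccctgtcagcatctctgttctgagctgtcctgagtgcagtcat
A match is a description of letters and not a binding site.

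At 18 h in formalin, furan livers had more H1f2 mRNA and lower ratios for most H4 probes than corn oil livers, while the other classes were mixed. Of the 42 tested member probes, 6 were higher and 13 lower, which is 19 called where 47.2% of all tested probes were called (20.4% higher and 26.8% lower), so the share of calls was near that of the array. The median difference was -0.13 over the members and -0.05 over all tested probes. The called falls were 8 of 11 H4 probes, 3 of 7 H3 and 2 of 9 H2B. The called rises were 1 of 4 H1 probes, 2 of 11 H2A, 2 of 9 H2B and 1 of 7 H3. Of the 31 members above background on all 16 arrays 3 were higher and 13 lower. Of the 6 rises, those of H2bc18 and H3c11 entered the tests only through the 18 h furan arrays, where they are high, so these 2 calls are no support for a rise. The 2 groups did not overlap for 6 probes higher and 12 lower in furan, where 17.9% and 21.3% of all probes did so. The split of calls between higher and lower hung on the scaling. Of the 19 calls, 16 kept their sign under median centring, 7 were still called and 0 were called the opposite way. With each array centred on its median in place of loess, 17 member probes were higher and 1 lower, and the median of all probes was 0.10. By class that setting gave 2 higher and 0 lower for H1, 10 and 0 for H2A, 2 and 0 for H2B, 2 and 0 for H3 and 1 and 1 for H4. The authors' deposited values gave 10 higher and 12 lower, and Agilent's log ratio 6 and 11. Within 1 slide alone the counts were 4 higher and 11 lower on slide 1 and 5 higher and 9 lower on slide 2. The share of all probes called under such alternatives is not given, here or below. Member counts under them therefore cannot be set against the whole array, and are no result about the members alone.

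H1f2 encodes the H1.2 linker histone, which binds the DNA between nucleosomes. Its ratio was 0.36, 0.40, 0.21 and 0.31 in the 4 furan livers at 18 h, against -0.78, -0.62, -0.67 and -1.20 in the corn oil livers. All 4 furan samples lay above all 4 corn oil samples, by a difference of 1.14 (SE 0.10, limma adjusted p = 2.88e-05). Centring on the median gave 1.64, and leaving out any 1 sample gave 1.03 to 1.20. Whether more cells held the mRNA or each cell held more cannot be told apart in whole liver. The other tested linker histones, H1f1, H1f4 and H1f5, differed by 0.03, -0.14 and 0.31 and were not called. The plot of ratios by sample shows H1f2 beside 6 other members.

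**Figure D1:**
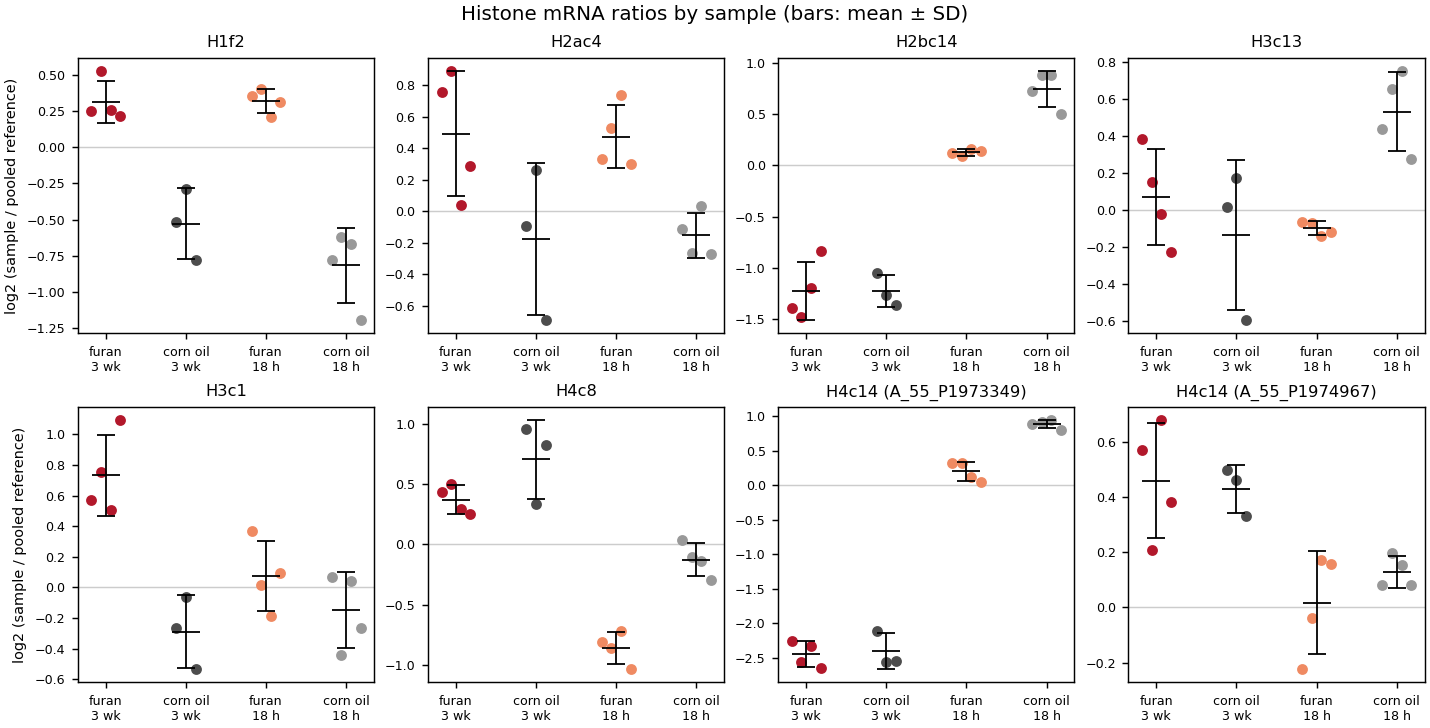
Each point is the log2 ratio of 1 liver sample to the pooled reference for 8 probes of 7 histone genes, with the mean and SD of each group as a bar, and groups ordered furan then corn oil at 3 weeks, then at 18 h. H1f2 lies above the corn oil samples in every furan sample at both times, and the 2 H4c14 probes follow different courses. Vertical scales differ between panels.

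Among the core histones that form the outer dimers of the nucleosome, H2ac4 (H2A) had ratios of 0.33, 0.53, 0.74 and 0.30 in furan livers at 18 h, against -0.11, -0.27, 0.03 and -0.27 in corn oil livers. The groups did not overlap, and the difference was 0.63 (SE 0.12, limma adjusted p = 0.00160). H2ac18 was higher by 0.37 (SE 0.08), and the other 9 H2A probes were not called, among them the brightest, H2ac12, with -0.20, and H2ac19 with -0.13. Under median centring 10 of the 11 H2A probes were called higher, H2ac12 by 0.35 and H2ac19 by 0.42. H2bc4 (H2B) had 0.28, 0.05, 0.23 and 0.18 in furan livers, against -0.37, -0.25, -0.39 and -0.56 in corn oil livers, again without overlap (difference 0.58, SE 0.09, limma adjusted p = 0.000704). H2bc18 was higher by 0.46 in the fit (limma adjusted p = 0.0169), but it was not well above background on any corn oil array. The bound, which was not tested, is at least 1.25-fold higher in furan. Such a bound sets the mean Cy5 signal of the brighter group against the higher, on each array, of the probe's own signal and the lowest signal well above background.

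H2bc1 and H2bc14 moved the other way. H2bc1, a testis-rich H2B gene, had 0.25, 0.41, 0.19 and 0.00364 in furan livers at 18 h, against 0.87, 0.94, 1.13 and 0.55 in corn oil livers. H2bc14 had 0.12, 0.09, 0.16 and 0.14 in furan livers, against 0.72, 0.88, 0.88 and 0.50. Neither gene's groups overlapped, and the differences were -0.66 (SE 0.10, limma adjusted p = 0.000488) and -0.62 (SE 0.09, limma adjusted p = 0.000448). Under median centring H2bc1 and H2bc14 were not called.

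Histone H3 with H4 forms the inner tetramer of the nucleosome. H3c13 had -0.07, -0.07, -0.14 and -0.12 in furan livers at 18 h, against 0.44, 0.65, 0.75 and 0.27 in corn oil livers. Its furan samples were tightly grouped below all corn oil samples (difference -0.63, SE 0.09, limma adjusted p = 0.000325). H3c4 had -0.00693, -0.15, 0.00626 and -0.08 in furan livers, against 0.38, 0.33, 0.48 and 0.10 in corn oil livers. That is a called difference of -0.38 (SE 0.10) under loess, without overlap, and an uncalled 0.16 under median centring. H3c8 fell by 0.43, while H3c11 was higher by 0.45 in the fit, with a bound of at least 1.23-fold because no corn oil array had it above background. H3c1, H3c3 and H3c7 were not called.

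All 11 H4 probes had differences below 0 in furan livers at 18 h, and 8 of them were called lower, with a class median of -0.63. Under median centring 1 H4 probe was called lower and 1 higher, and the class median was -0.11, or -0.21 relative to the median of all probes. The authors' deposited values and Agilent's log ratio each gave 7 lower and 0 higher. Leaving out any 1 sample left 7 or 8 called lower. H4c8, called lower under median centring too, had -0.81, -0.86, -0.72 and -1.04 in furan livers, against 0.04, -0.11, -0.14 and -0.30 in corn oil livers. Every furan sample was below every corn oil sample, by a difference of -0.73 (SE 0.10, limma adjusted p = 0.000282). Its promoter window, shown above, holds GGTCCG and no TATAAA.

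H4c12 is read by 2 probes. The first (A_55_P2091145) had -0.30, -0.07, -0.18 and -0.25 in furan livers, against 0.52, 0.42, 0.63 and 0.49 in corn oil livers. The second (A_55_P2091147) had 0.37, 0.20, 0.13 and -0.11, against 0.90, 1.02, 0.91 and 0.61. Neither probe's groups overlapped, and both differed by -0.71 (SE 0.09 and 0.10). H4c14 and H4c9 also have 2 probes each, which disagreed. H4c14 differed by -0.69 (SE 0.08, limma adjusted p = 9.28e-05) on probe A_55_P1973349 and by -0.11 (limma adjusted p = 0.375) on A_55_P1974967. H4c9 differed by -0.63 (SE 0.09, limma adjusted p = 0.000307) on A_55_P2158697 and by -0.09 (limma adjusted p = 0.418) on A_55_P2174198. The 2 probes of H2ac15 gave 0.05 and -0.13, neither called. Members of a class have closely similar coding sequences and can share signal on an array. The probe sequences were not used here, so a value belongs to a probe more surely than to 1 gene copy.

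**Figure D2:**
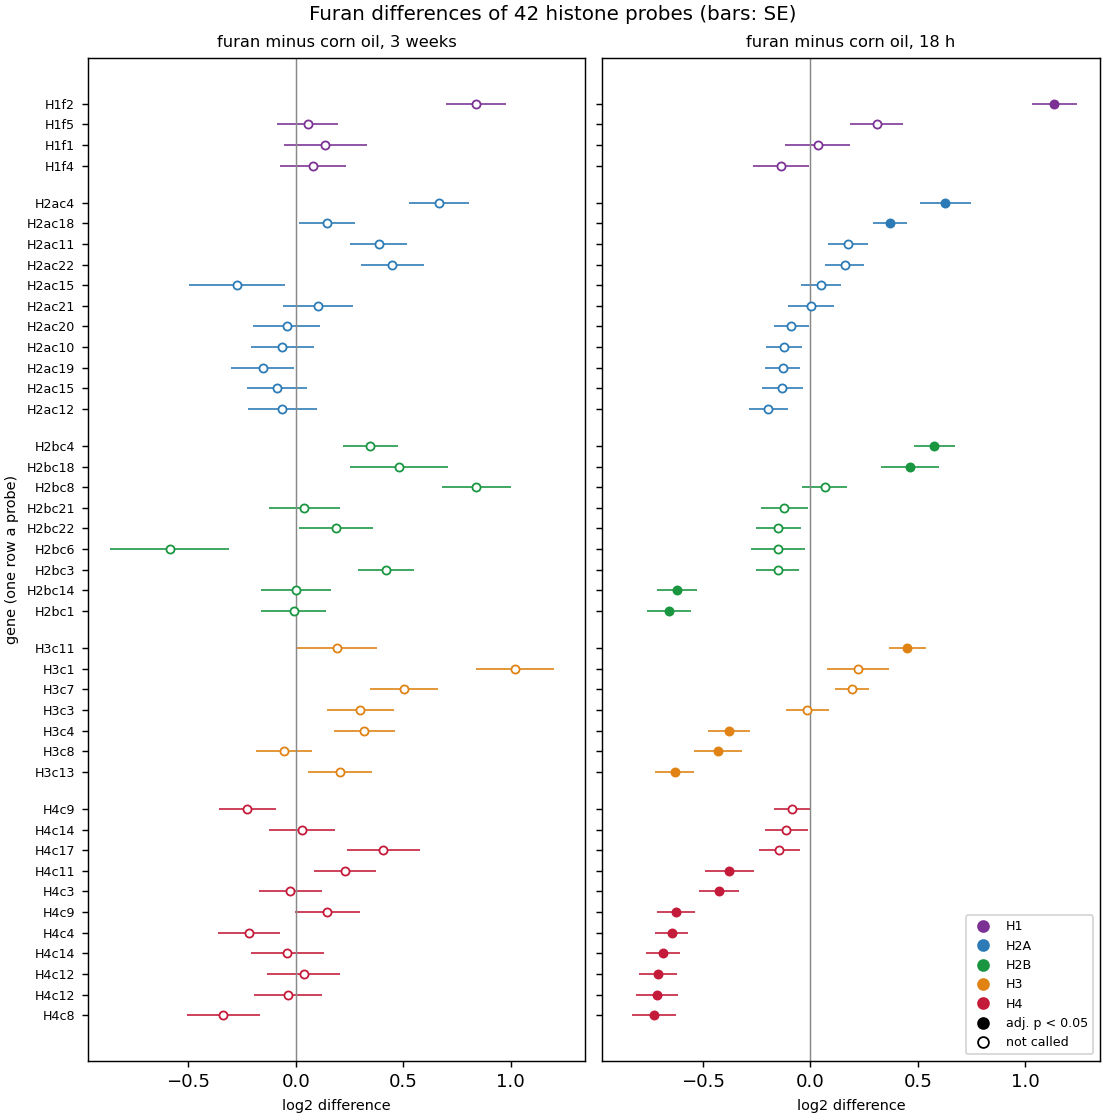
Log2 difference of furan minus corn oil livers (bars: SE) for the 42 tested histone probes, by class, at 3 weeks on the left and at 18 h on the right; filled points passed an adjusted p under 0.05. At 18 h the 11 H4 probes all lie below 0 under loess, which changed under median centring, and at 3 weeks no probe is filled.

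**Figure D3:**
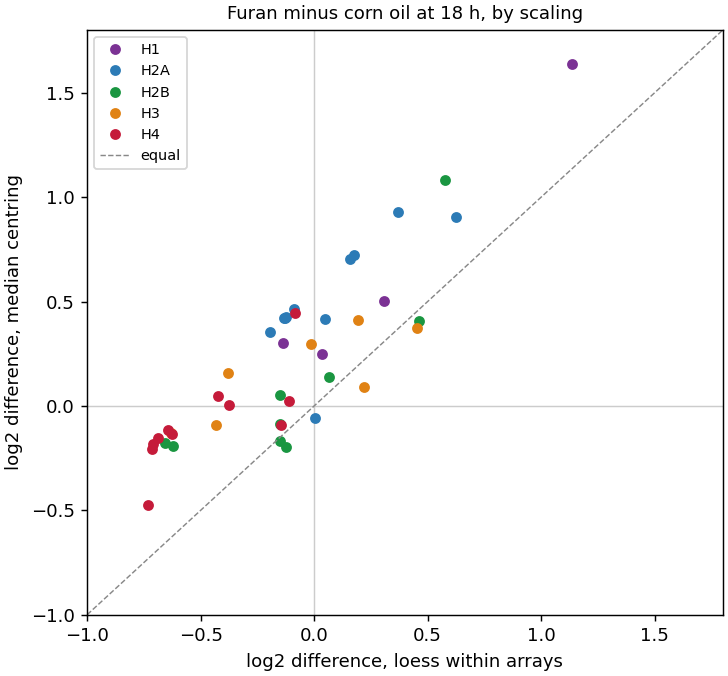
Log2 difference of furan minus corn oil livers at 18 h for the 42 tested histone probes, with loess on the horizontal axis and median centring on the vertical axis, coloured by class. H1f2 is at the top right, at 1.14 and 1.64, and the median of the H4 probes moves from -0.63 under loess to -0.11 under median centring.

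At 3 weeks in formalin no member was called between furan and corn oil livers, where 0.121% of all tested probes, 36 in all, were called by limma (0.0876% higher and 0.0337% lower). Unadjusted limma p was under 0.05 for 11 of the 42 members, and for 4109 of all 29690 tested probes. The member median was 0.09 and that of all probes was -0.000584. The groups did not overlap for 10 member probes, each higher in furan, and for 0 lower, where 7.53% and 5.85% of all probes did so. Other settings called members, all but 1 higher in furan: median centring 12 and the authors' deposited values 2, and without the 3-week corn oil sample 4 there were 4 calls, of which 1 was lower.

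H1f2 again had all furan samples above all corn oil samples at 3 weeks, with 0.25, 0.53, 0.25 and 0.21 in furan livers, against -0.51, -0.29 and -0.78 in corn oil livers. The difference was 0.84 (SE 0.14, limma adjusted p = 0.0683), and it did not differ detectably from that at 18 h (3 weeks minus 18 h: -0.30, SE 0.16, limma adjusted p = 0.242). H2bc8 had 0.48, 0.45, 0.66 and 0.70 in furan livers at 3 weeks, against -0.58, -0.40 and 0.18 in corn oil livers, where no array had it above background. The bound was at least 1.77-fold higher in furan, and the fit gave a limma adjusted p of 0.0821. H3c1 was above background on 3 of the 4 furan arrays at 3 weeks and on no other array. Its ratios were 0.57, 0.75, 0.51 and 1.09, against -0.27, -0.06 and -0.53 in corn oil livers, with a bound of at least 1.45-fold. H3c1 entered the tests only through these furan arrays, so the limma adjusted p of its fit, 0.0719, is no support for a difference. H2ac4 had 0.75, 0.89, 0.04 and 0.29 in furan livers, against -0.09, 0.26 and -0.69, and these groups overlapped (difference 0.67, SE 0.14, limma adjusted p = 0.108). Among the H4 probes the smallest p was that of H4c17, with a difference of 0.41 (SE 0.17, limma adjusted p = 0.325), and the class median was -0.03.

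The difference of the furan effect, 3 weeks minus 18 h, was tested directly over all 15 samples. It was called for 11 of the 42 member probes, all above 0, where 12.8% of all probes were called (7.82% above 0 and 4.95% below). The 11 were 5 H4 probes, 3 H3 and 3 H2B, and 0 of the H1 and H2A probes. For 9 of them the furan effect at 18 h was a called fall and the effect at 3 weeks was not called. These 9 were H2bc1, H2bc14, H3c4, H3c13, H4c9 (A_55_P2158697), H4c11, H4c14 (A_55_P1973349) and both H4c12 probes. The other 2 were H2bc8 and H3c1, called at neither time. Both were above background on no 3-week corn oil array, and H3c1 on no 18 h array either, so the size of their difference was not measured. H3c1 entered the tests only through the 3-week furan arrays, where it is high, so its call is no support for a difference. H3c13 had the widest gap, 0.84 (SE 0.18, limma adjusted p = 0.00710). Its ratios at 3 weeks were 0.38, 0.15, -0.03 and -0.23 in furan livers, against 0.02, 0.17 and -0.60 in corn oil livers, which overlap. Under median centring 3 members were called, each also called under loess, and without the 3-week corn oil sample 6 there were 5. In the 15 fits that each left out 1 sample, H2bc14 was called in 4 and H3c1 in 5. The other called probes, H4c11 not counted, were called in 13 to 15.

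With time in formalin the member differences reached -3.30 and 2.89, against -0.73 and 1.14 for furan at 18 h. Under loess the H1, H2A, H2B and H4 classes each held called rises and called falls in both treatments, and H3 did so in corn oil livers. The only called H1 fall in either treatment was that of H1f5, which was tested only through the 18 h arrays. In furan livers 13 member probes were higher and 17 lower at 3 weeks than at 18 h, where 67.2% of all tested probes were called (35.1% higher and 32% lower). The times did not overlap for 13 members higher and 17 lower, where 57.7% of all probes did not overlap (29.8% higher and 27.8% lower). In corn oil livers 13 were higher and 20 lower, where 59.4% of all probes were called (28.6% higher and 30.8% lower). There the times did not overlap for 12 members higher and 21 lower, where 58.6% of all probes did not overlap (28.6% higher and 30% lower). The H4 class had 3 higher and 7 lower of 11 in furan livers (median -0.73) and 3 higher and 8 lower in corn oil livers (median -1.34). H2A probes had 1 higher and 6 lower of 11 in each treatment, and H3 probes 4 higher and 0 lower of 7 in furan livers and 4 higher and 2 lower in corn oil livers. H3c1 and the H2B probe H2bc21 entered the tests only through the 3-week furan arrays, where they are high. A called rise with time of either probe in furan livers is thus no support for a rise. Under median centring, where the median of all probes was -0.29 in furan livers and -0.24 in corn oil livers, the member counts were 10 higher and 26 lower in furan livers, and 6 higher and 24 lower in corn oil livers. There the H4 counts were 2 higher and 8 lower in furan livers, and 0 higher and 8 lower in corn oil livers. The H2A counts were 1 higher and 10 lower in furan livers, and 0 higher and 9 lower in corn oil livers, and the H3 counts 3 higher and 2 lower in each. Agilent's log ratio gave 15 members higher and 15 lower in furan livers, and 12 and 20 in corn oil livers. The 2 comparisons are of separate samples, but each rests on the shared fit and reference pool.

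The deepest falls were on 1 probe of each of 2 H4 genes. H4c14 on A_55_P1973349 had -2.25, -2.56, -2.32 and -2.65 in furan livers and -2.10, -2.56 and -2.55 in corn oil livers at 3 weeks. The same probe had 0.32, 0.32, 0.13 and 0.05 in furan livers and 0.89, 0.92, 0.94 and 0.81 in corn oil livers at 18 h. The times were far apart in both treatments, with differences of -2.65 (SE 0.12, limma adjusted p = 3.82e-11) in furan livers and -3.30 (SE 0.13, limma adjusted p = 1.03e-11) in corn oil livers. The other H4c14 probe, A_55_P1974967, was called higher at 3 weeks, by 0.44 and 0.30, and both of those calls were lost under median centring. H4c9 on A_55_P2174198 had -2.09, -2.10, -1.86 and -2.11 in furan livers at 3 weeks, against 0.61, 0.59, 0.63 and 0.61 at 18 h (difference -2.65, SE 0.09). In corn oil livers it differed by -2.51 (SE 0.10). Its other probe, A_55_P2158697, differed by 0.20 in furan livers, not called, and by -0.57 in corn oil livers. Both H4c12 probes were lower at 3 weeks, with differences of -0.81 and -1.28 in furan livers and -1.55 and -1.95 in corn oil livers.

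Not all H4 probes fell with time. H4c8 had 0.43, 0.50, 0.29 and 0.25 in furan livers at 3 weeks, against -0.81, -0.86, -0.72 and -1.04 at 18 h (difference 1.23, SE 0.13). In corn oil livers its difference was 0.83 (SE 0.14), and there too the times did not overlap. H4c17 was higher by 1.11 in furan livers and by 0.56 in corn oil livers.

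H2B probes split in the same way. H2bc6 had 1.88, 2.31, 1.35 and 2.01 in furan livers and 2.92, 1.88 and 2.64 in corn oil livers at 3 weeks. At 18 h it had -0.56, -0.53, -0.46 and -0.71 in furan livers and -0.10, -0.35, -0.54 and -0.66 in corn oil livers. The differences of 2.45 (SE 0.21) and 2.89 (SE 0.23) were the largest rises with time among the members. H2bc3 was higher by 1.87 and 1.30 in furan and corn oil livers. H2bc1 differed by -1.35 and -2.00 and H2bc14 by -1.35 and -1.97 in the same order, all called lower. H2bc8 was higher with time in furan livers (0.63), and in corn oil livers it was above background on no 3-week array and was not called. H2bc4 differed by -0.49 and -0.26, both called lower.

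Of the H3 genes, H3c7 was higher at 3 weeks by 1.43 (SE 0.11) in furan livers and 1.12 (SE 0.12) in corn oil livers, and H3c3 by 1.36 and 1.05. H3c13 and H3c4 differed by 0.17 and 0.21, not called, in furan livers, and by -0.67 and -0.49, called lower, in corn oil livers. Among H2A, H2ac19 was lower, by differences of -0.79 (SE 0.10) in furan livers and -0.76 (SE 0.11) in corn oil livers, with no overlap of the times in either. In the H1 class H1f1 was higher by 0.99 and 0.88. H1f5 fell by 0.85 in furan livers, where 1 of the 4 arrays at 3 weeks had it above background. In corn oil livers H1f5 was below background on every 3-week array. There the bound was at least 1.51-fold lower, and the fit gave a limma adjusted p of 0.00221. H1f5 entered the tests only through the 18 h arrays, where it is high, so its calls with time are no support for a fall. H1f2 differed by -0.01 in furan livers and was called higher by 0.29 in corn oil livers, with overlapping samples. Under median centring these differences became -0.85, called lower, and -0.34, not called.

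**Figure D4:**
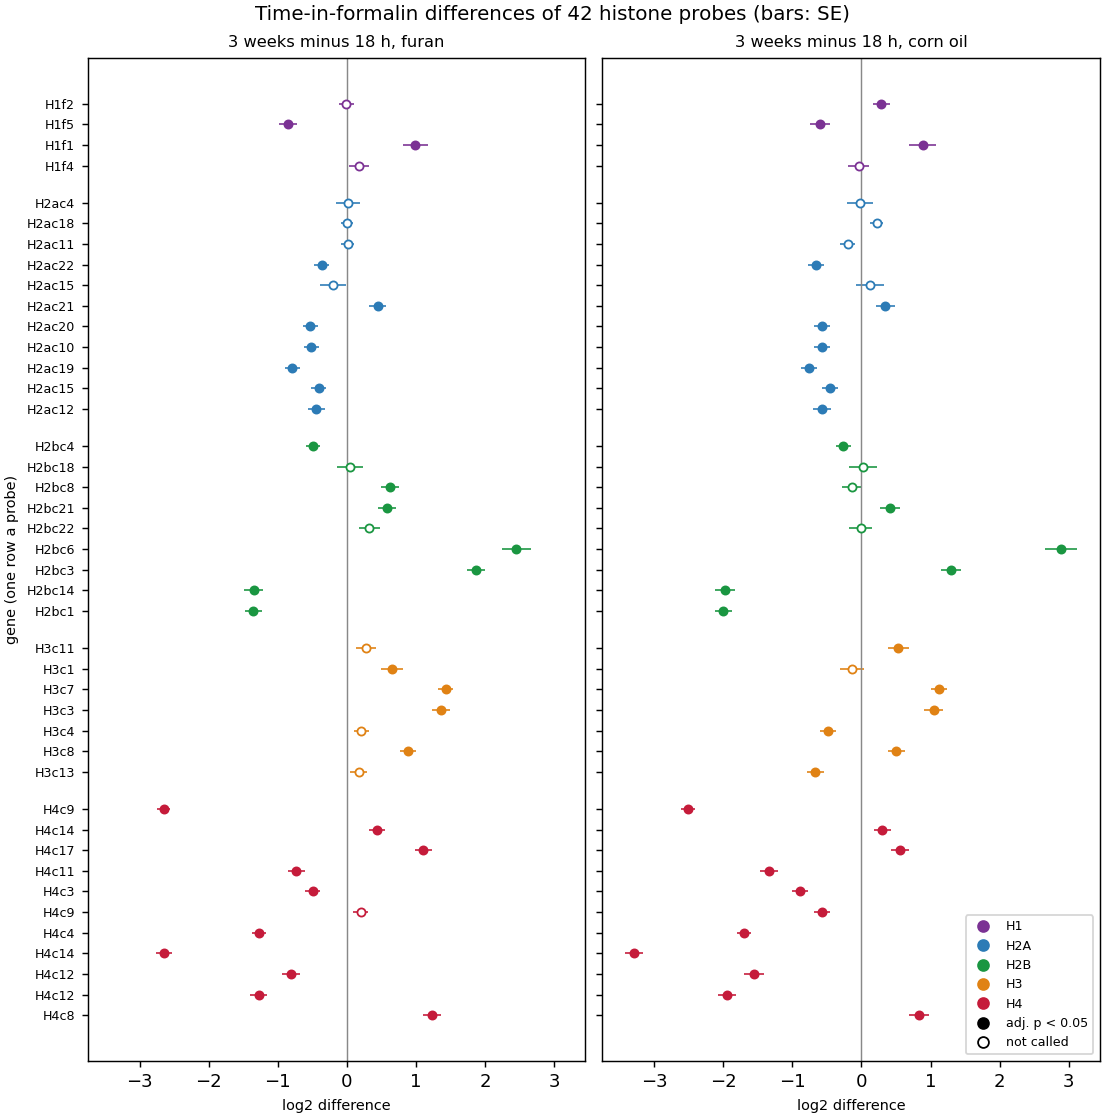
Log2 difference of 3 weeks minus 18 h in formalin (bars: SE) for the 42 tested histone probes, by class, in furan livers on the left and corn oil livers on the right; filled points passed an adjusted p under 0.05. The classes H1, H2A, H2B and H4 hold probes on both sides of 0 in both panels. The H3 probes all lie above 0 in furan livers, and the H4 class reaches -3.30. Under median centring 2 H3 probes were called lower in furan livers, and 0 H4 probes higher in corn oil livers.

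The median over the 42 tested members averaged -0.00868 ± 0.0971 in furan livers and -0.24 ± 0.19 in corn oil livers at 3 weeks (SD, n = 4 and 3). At 18 h it averaged 0.0628 ± 0.0147 in furan livers and 0.12 ± 0.11 in corn oil livers (SD, n = 4 each). The class medians were further apart than this. The H4 median averaged -0.33 ± 0.15 and -0.51 ± 0.22 in furan and corn oil livers at 3 weeks, and 0.08 ± 0.11 and 0.64 ± 0.14 at 18 h. The H1 median averaged 0.06 ± 0.12 and -0.32 ± 0.20 at 3 weeks, and 0.02 ± 0.09 and -0.34 ± 0.15 at 18 h. The genes outside the family whose ratios ran most like the overall member median across the 15 samples were Gstp1 (Pearson r = 0.94), Gstp2 (0.90) and Zfp507 (0.90), a description of samples that share arrays and the reference pool.

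Genes around the histones were read from lists of the replication-independent histones, the histone mRNA machinery, chaperones and the cell cycle, by the brightest tested probe of each gene. The list values, and those of the cell type markers below, were read under loess only. For single genes they are given without the background limits stated for the members. Their directions were not checked under median centring, which changed the split of the members. Of 8 tested genes on the list of replication-independent histones, 3 rose and 1 fell in furan livers at 18 h, with a median of 0.21. H3f3a and H3f3b, both coding for H3.3, rose by 0.63 and 0.92, and H2az1 by 0.23. H3f3b has 3 tested probes, which gave 0.92, 0.77 and -0.42, and the second H3f3a probe gave -0.08. Macroh2a1 fell by 0.58, and H2ax differed by 0.32, not called. H1f0, the replacement linker histone, was not tested because it was too dim.

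Of 14 tested genes of histone mRNA transcription and 3′ end processing, 5 rose and 5 fell at 18 h, with a median of -0.00565. Slbp, the stem-loop binding protein, had a mean of 0.11 ± 0.11 in furan livers, against 0.55 ± 0.09 in corn oil livers (SD, n = 4 each). It fell by 0.44 on its brighter probe (SE 0.08, limma adjusted p = 0.00142) and by 0.46 on the other. Lsm10, a subunit of the U7 small nuclear ribonucleoprotein, fell by 0.60, and Cpsf3, the endonuclease that cuts the 3′ end, fell by 0.51. Casp8ap2, a component of histone locus bodies, rose by 0.44, Ccne1, cyclin E1, rose by 0.73, and Npat differed by 0.04, not called. With time in formalin in corn oil livers, 2 of the 14 rose and 5 fell, where 59.4% of all tested probes were called (28.6% higher and 30.8% lower), and Slbp fell by 1.28 on the brighter probe, whereas the other gave -0.50 and was not called.

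Of 8 tested cell cycle genes, 6 rose and 0 fell in furan livers at 18 h, with a median of 0.56. Of the 11 genes listed, 8 were above background on all 18 h furan arrays and 3 on all 18 h corn oil arrays, where 4 were nowhere above background. A fitted rise is not a measured size for a gene without corn oil signal. For a gene tested only through the furan arrays its call is no support for a rise. The 6 include Cdkn1a, which blocks the cell cycle, by 1.89 on its brightest probe and 0.02 on the other, as well as Mcm2 (0.72), Mcm6 (0.69) and Pcna (0.56), which act in DNA replication. Mki67, a proliferation marker, differed by 0.20 and was not called. Of 9 tested histone chaperones, 3 rose, Nap1l1 (0.62), Nasp (0.48) and Chaf1b (0.32), and 1 fell, Atrx (-0.40). At 3 weeks limma called 0 genes of these 4 lists between furan and corn oil livers. The unadjusted limma p was under 0.05 for 3 cell cycle genes and 0 of the others, and for 4109 of all 29690 tested probes. The list counts stand against 47.2% of all tested probes called at 18 h, and the lists were written with earlier results of these data known.

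Markers of hepatocytes moved too at 18 h under loess, where 6 of 7 fell and 1 rose in furan livers (median -0.84). Their median level per sample ran from -0.10 to 0.11 in furan livers and from 0.46 to 0.66 in corn oil livers. Of the erythroid markers 1 rose and 3 fell of 5 tested, of the endothelial markers 1 rose and 3 fell of 5, of the stellate markers 2 rose and 2 fell of 5, of the macrophage markers 0 rose and 1 fell of 4, of the lymphocyte markers 0 rose and 2 fell of 3 and of the cholangiocyte markers 0 rose and 1 fell of 2. The part of these markers, and of the share of probes above background, in the histone values was not tested.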

How the data were processed

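The arrays were Agilent SurePrint G3 mouse arrays. Scans were read by the authors in Agilent Feature Extraction 11.0.1.1, per the file headers. For each spot the deposited files hold raw intensity (the median signal and its local background) and, as log10, Agilent's own dye-normalized ratio of liver to pool. A value table deposited by the authors is in log2 of liver over pool. Its method is not given in the sources used here, its centring stays unknown, and it served as an alternative only. Its log2 scale and direction were settled against the scanner values (column medians of -0.00919 to 0.0247). Slopes against them were 0.950 to 0.991 on the 18 h arrays (Pearson r 0.980 to 0.997). On the 3-week arrays they were 0.667 to 0.825 (r 0.805 to 0.887), so the table followed the scanner values less closely there.

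Here background was corrected by normexp (offset 50), ratios were normalized by loess within arrays with control spots at weight 0, outlier spots were left out and spots of a probe averaged. R 4.3.3 with limma 3.58.1 fitted each probe with the slide as a term (2 slides, with 2 arrays of each group on each), with two-sided p-values. Furan comparisons used their own time, and the others all 15 samples. Arrays 2.1 and 2.2 correlated at 0.92, against a median of 0.84 to 0.85 within groups. Symbols came from RefSeq through accessions. The number of arrays limits the precision.

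Named were, per histone class, the brightest probe and those with the smallest p in the furan and formalin comparisons, the 4 largest non-overlapping called rises and falls of each comparison, every tested probe of such a gene, and 10 set genes; other members are named to account for a count. Members, lists and markers were chosen with earlier results of these data known. Sample numbers recur between the times, and deviations of same-numbered samples correlated at -0.22 to 0.16. These correlations cannot show whether such samples came from the same mouse. The main fits treated the samples as unpaired. Alternatives covered background, scaling, filter, slide, threshold, moderation and each sample left out. The fit was tested on simulated data. Probe sequences were not used here.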

Additional observations from a re-analysis of the deposited data

Results flagged for a closer look

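In 6 of 96 sets of 4 samples examined, 1 sample stood far from the other 3, where chance gives about 1 in 20. H1f2 was 0.53 in the 3-week furan sample 42, against 0.21 to 0.25 in the others. H4c9 on A_55_P2174198 was -1.86 in the 3-week furan sample 43, against -2.11 to -2.09, and 0.85 in the 18 h corn oil sample 3, against 0.62 to 0.66. H4c12 on A_55_P2091147 was -0.75 in the 3-week furan sample 41, against -1.30 to -1.23. H2bc3 was -0.74 in the 18 h corn oil sample 3, against -0.47 to -0.44. The median over all tested members was -0.15 in the 3-week furan sample 44, against 0.03 to 0.06.

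The furan effect differed between the times, 3 weeks minus 18 h, for 11 member probes by the interaction test in limma. The difference was 0.84 for H3c13 and 0.70 for H3c4. The fit gave 0.80 for H3c1 and 0.77 for H2bc8, which are not measured sizes, since H3c1 was above background on 3-week furan arrays only and H2bc8 on no 3-week corn oil array. H3c1 was thus tested only through the group where it is high, and its call is no support for a difference. For H2bc1 it was 0.65 and for H2bc14 0.62. For the H4 probes it was 0.77 for H4c9 (A_55_P2158697), 0.75 and 0.68 for H4c12 (A_55_P2091145 and A_55_P2091147), 0.65 for H4c14 (A_55_P1973349) and 0.60 for H4c11.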

How the results depend on the processing

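The counts of called members at 18 h and in both formalin comparisons stayed within 1.5 times of 19, 30 (furan livers) and 33 (corn oil livers) under every alternative run, but the split between higher and lower did not, as given in the report for median centring. The count at 3 weeks, 0, became 12 with median centring, 4 with no background subtraction, 1 with plain subtraction, 2 with the authors' deposited values, 1 with only probes above background on every array, 1 with no slide term, 3 at a threshold of 0.10 and 2 with arrays 2.1 and 2.2 kept apart. The count of differing furan effects, 11, became 3 with median centring, 7 with Agilent's log ratio, 6 with no filter on dim probes and 2 at a threshold of 0.01. It is not known whether the replicate numbers pair the samples. With the replicate number as a block, the count of differing furan effects was 7, and the formalin counts were 30 in furan livers and 31 in corn oil livers. Leaving out 1 sample gave 18 to 20 calls for furan at 18 h, 0 to 4 at 3 weeks, 5 to 11 for the difference, 30 to 31 for formalin time in furan livers and 27 to 34 in corn oil livers. The 4 came without the 3-week corn oil sample 4 and the 5 without sample 6 of that group. The member median in 18 h furan livers was 0.103 with Agilent's log ratio and 0.142 with the authors' deposited values, against 0.0628.

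Among named differences called under loess or under median centring, 11 had opposite signs in these settings; others, called under neither, changed sign too. Furan minus corn oil at 18 h became 0.35 for H2ac12, 0.42 for H2ac19, 0.16 for H3c4 and 0.44 for H4c9 (A_55_P2174198). For 3 weeks minus 18 h it gave -0.66 for H2ac4, -0.40 for H3c4, -0.59 for H3c13, -0.57 for H4c9 (A_55_P2158697) and -0.00400 for H4c14 (A_55_P1974967) in furan livers, and -0.34 for H1f2 and -0.0412 for H4c14 (A_55_P1974967) in corn oil livers. The cause was not tested. Of 19 members called at 18 h under loess, 7 were called the same way under median centring and 0 the opposite way. For a probe not above background in a group, a fitted difference is not a measured size.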

Other observations

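A few genes with older Hist names fall outside the rule by their current symbols, and were read under loess only. H4f16, an H4 gene, fell by 0.60 in furan livers at 18 h (limma adjusted p = 0.000816) and by 0.84 with time in formalin in corn oil livers. H1f6, the testis-rich linker histone, fell by 0.26 at 18 h, and H2aw differed by 0.07 and was not called.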
